A study of Arabidopsis thaliana with 12 samples.

Results

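Leaf transcripts of sex4-3, a mutant of the starch phosphatase SEX4, were compared with those of sex1-3, a mutant of glucan, water dikinase (SEX1), in Arabidopsis thaliana. The members were the arrays titled with these 2 genotypes, 3 of each, which made 6 of the 12 arrays of the series; no wild type (WT) or ptpkis2 array entered the fit or its filter. The sex4-3 plants are a Salk insertion line, and the sex1-3 plants carry an induced mutation in the Col-0 background. The ptpkis2 plants are another Salk line, in a gene for a relative of SEX4, and WT is Columbia. All plants grew in soil under 12 h of light a day at 100 micromol m-2 s-1, 20 degrees Celsius and at least 75% humidity. Leaves at growth stage 3.70 were frozen 0.5 h before the lights came on, with 3 leaves from 8 plants per genotype. Each genotype is 1 line. Whether its 3 arrays stand for separate plants, pools or repeated runs of one extract is not given in the labels, so p-values here cover the array-to-array spread alone, and that spread may be technical.

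Leaves store part of each day's photosynthate as starch and degrade it at night. Glucan, water dikinase puts phosphate groups on the glucans at the granule surface, which opens them to beta-amylases, and SEX4 takes the phosphate off again so that the amylases can proceed. Both classes of mutant are known for leaf starch that stays high at the end of the night, which is the time sampled here. The comparison therefore set the loss of the phosphate-removing step against a defect in the phosphate-adding step at one harvest time.

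The values are Affymetrix ATH1 signal intensities on a linear scale, 1 per probe set, and each difference is given as log2 signal in sex4-3 minus log2 signal in sex1-3 ± its standard error (SE) from limma, with 3 arrays per genotype. The 6 arrays had median signals of 26.9 to 28.0 in sex4-3, against 24.0 to 26.0 in sex1-3, at an equal trimmed mean. The ratio of 3' to 5' control probe sets, a check of RNA quality, was 1.05 to 1.14 for GAPDH in sex4-3, against 1.12 to 1.38 in sex1-3. For actin it was 3.93 to 5.46 in sex4-3, against 4.55 to 6.54 in sex1-3, highest on sex1-3 replicate 3. Across probe sets the log2 signals correlated at 0.910 to 0.923 within sex4-3, at 0.912 to 0.917 within sex1-3 and at 0.895 to 0.911 between the genotypes. No probe set was named SEX4, SEX1 or LSF1 in the annotation used, so the transcripts of the mutated genes were not identified and do not check the labels. Markers of leaf mesophyll were abundant in both genotypes: the 4 measured (RCA, PRK, SBPASE and LHCB4.1) had signals of 4200.5 to 10121 in sex4-3, against 4347 to 10735 in sex1-3, and none was called. The root hair expansin EXPA7 lay between 1.53 and 7.78 in sex4-3, against 2.47 to 9.00 in sex1-3. The guard cell regulator FMA differed by -0.19 ± 0.26 and was not called.

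At an adjusted p below 0.05, 1452 of the 13647 probe sets tested were called (10.6%). Of these, 836 (6.13%) were higher in sex4-3 and 616 (4.51%) were lower. The median difference was 0.972 among the higher calls and -0.876 among the lower ones. At least 2-fold differences were found for 399 of the higher and 217 of the lower calls, and at least 4-fold differences for 63 and 41. Higher calls made up 57.6% of the total, but 33.9% after each array was centred on its own median, which moved the median of all probe sets to -0.105, against 0.0344 as reported. The number called was 612 without sex4-3 replicate 2, 706 without sex1-3 replicate 3 and 875 without sex1-3 replicate 1. It was 806 with eBayes without a trend on signal and 332 with all 12 arrays in the fit, which takes in WT replicate 2. Of the genes named, 15 lost their call in the 12-array fit but in no other alternative that kept all 6 arrays and tested them: AGL19, AT1G19540, AT1G47400, AT5G05250, AT5G57655, CCOAMT, COR27, DRT100, EXPA8, TUA6, TUB7, UGT78D1, ndhH, psbN and rpl14. In bulk leaf tissue, fewer cells of a type and less RNA per cell cannot be told apart.

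**Figure D1:**
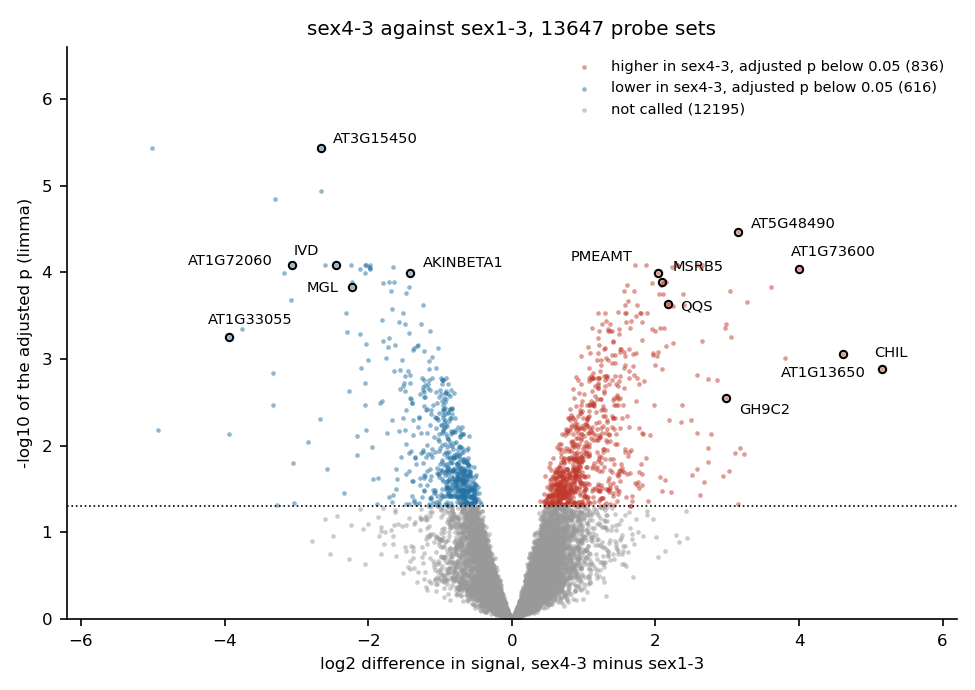
Each point is 1 of 13647 probe sets, with the log2 difference (sex4-3 minus sex1-3) on the horizontal axis and -log10 of the adjusted p on the vertical axis. Red points are the 836 called higher in sex4-3, blue points the 616 called lower, grey points were not called, and the dotted line marks an adjusted p of 0.05. CHIL and AT1G73600 lie far to the right, and AT3G15450 is the highest labelled point.

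Transcripts listed as responsive to sugar starvation, and to SnRK1, the plant kinase that is active when energy is short, were lower in sex4-3 than in sex1-3. Of the 26 genes of this list, only 8 had a named probe set. All 8 lay lower in sex4-3 on each array than on any sex1-3 array. This held for 13.7% of all probe sets (31.1% did not overlap in either direction). Of the 8, 6 fell (75.0%, against 4.51% of all probe sets called lower). The list median was -1.45, against 0.0344 over all probe sets tested. The locus AT3G15450 had signals of 441, 532 and 466 in sex4-3, against 3178, 3199 and 2730.2 in sex1-3. The sex4-3 arrays were far below the sex1-3 arrays, a 6.33-fold difference (log2 -2.66 ± 0.13, adjusted p = 3.6e-06). SIS (AT5G02020), a serine-rich protein known from salt stress, had 61.9, 61.4 and 75.2 in sex4-3, against 375, 346 and 227 in sex1-3. Its groups lay well apart, with sex4-3 4.68-fold lower (log2 -2.23 ± 0.21, adjusted p = 0.00013). AT4G27450 had 264, 454 and 523 in sex4-3, against 1324, 1325 and 1299 in sex1-3 (log2 -1.73 ± 0.22, adjusted p = 0.00073), and its sex1-3 signals were nearly equal. AT2G20670 had 338, 318 and 269 in sex4-3, against 812, 1066 and 737 in sex1-3 (log2 -1.49 ± 0.17, adjusted p = 0.00039), again without overlap. The remaining 2 calls were named after their values were seen. AKINBETA1 (AT5G21170), a regulatory subunit of SnRK1 itself, had 432, 462 and 477 in sex4-3, against 1272, 1196 and 1181 in sex1-3. Both groups were tight, and the difference was 2.66-fold (log2 -1.41 ± 0.13, adjusted p = 0.0001). ATL8, a RING-type ubiquitin ligase, was at -0.97 ± 0.25 (adjusted p = 0.032), and its call was lost without sex4-3 replicate 2 (0.11), sex4-3 replicate 3 (0.058), sex1-3 replicate 1 (0.10) or sex1-3 replicate 2 (0.099). AILP1 and BZIP53 were not called, at -0.64 ± 0.20 and -0.27 ± 0.15. AILP1 was called lower without sex4-3 replicate 3 (adjusted p = 0.018), with array weights (0.027) and with median centring (0.031). It was also called with 11 arrays in the fit, WT replicate 2 left out (0.039).

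Enzymes that degrade branched-chain amino acids, lysine and methionine, an alternative source of respiratory substrate, were also lower in sex4-3 where they were called. Of 12 members with a named probe set 11 were tested, 7 fell (63.6%, against 4.51% of all probe sets called lower), none rose, and all 11 differences were below 0 with a median of -0.861. IVD (AT3G45300), the isovaleryl-CoA dehydrogenase in the degradation of leucine, had signals of 33.5, 45.2 and 48.6 in sex4-3, against 232, 208 and 251 in sex1-3. No sex4-3 array came near the sex1-3 level, and the difference was 5.48-fold (log2 -2.45 ± 0.19, adjusted p = 8.2e-05). MCCA (AT1G03090), the biotin-carrying subunit of methylcrotonyl-CoA carboxylase at the next step of that pathway, had 72.2, 65.6 and 83.0 in sex4-3, against 270.4, 337 and 262 in sex1-3. It was 3.93-fold lower (log2 -1.98 ± 0.17, adjusted p = 9e-05), whereas its partner subunit MCCB differed by -0.29 ± 0.18 and was not called. MGL (AT1G64660), methionine gamma-lyase, had 28.7, 23.0 and 25.1 in sex4-3, against 146, 120.0 and 96.0 in sex1-3. The sex4-3 signals were tight and the difference was 4.66-fold (log2 -2.22 ± 0.22, adjusted p = 0.00015).

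Further members of the list showed smaller differences. AT4G33150, listed as the lysine-degrading enzyme LKR/SDH, had 26.8, 25.2 and 50.6 in sex4-3, against 138, 72.0 and 61.8 in sex1-3. Its sex1-3 signals were spread, and the call (log2 -1.39 ± 0.34, adjusted p = 0.025) was lost without sex4-3 replicate 1 (adjusted p = 0.051), sex4-3 replicate 2 (0.11) or sex1-3 replicate 1 (0.096). ALDH6B2, methylmalonate semialdehyde dehydrogenase of valine breakdown, ETFQO and AT2G26800, listed as HML1, also fell (-1.23, -0.86 and -0.57, named after their values were seen). ETFQO passes electrons from the electron transfer flavoprotein to ubiquinone. The calls of ETFQO and AT2G26800 were lost without sex4-3 replicate 2 (adjusted p = 0.072 and 0.077), sex1-3 replicate 1 (0.053 and 0.051) or sex1-3 replicate 3 (0.058 and 0.10). The 2 subunits of the electron transfer flavoprotein (ETFALPHA and ETFBETA) and D2HGDH had differences of -0.3, -0.18 and -0.11 and were not called. AT5G09300, listed as a subunit of the branched-chain ketoacid dehydrogenase, did not pass the filter on low signal, with 3.20 to 8.09 in sex4-3, against 1.68 to 12.7 in sex1-3. The number called was 4 without sex4-3 replicate 2, 4 without sex1-3 replicate 1 and 4 with all 12 arrays in the fit, against the 7 reported.

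**Figure D2:**
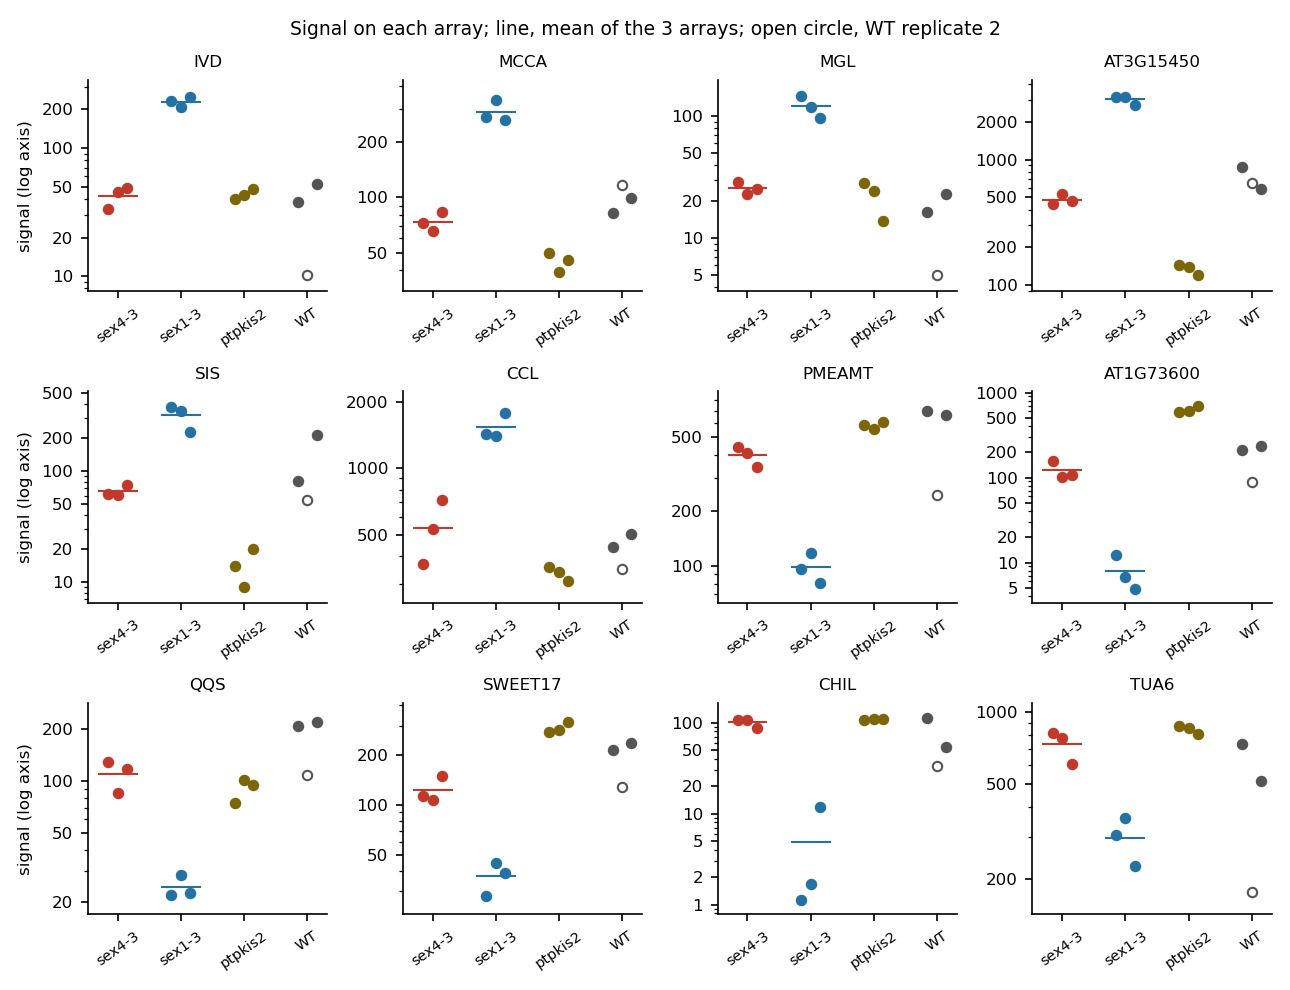
Signal (log axis) of 12 genes on each of the 12 arrays, by genotype from left to right sex4-3, sex1-3, ptpkis2 and WT; lines are means of 3 arrays, and the open circle is WT replicate 2, which stood apart from the other arrays. IVD, MCCA, MGL, AT3G15450, SIS and CCL are lower on all sex4-3 arrays than on all sex1-3 arrays, and PMEAMT, AT1G73600, QQS, SWEET17, CHIL and TUA6 are higher.

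The 2 measured transcripts of choline synthesis were higher in sex4-3. Plants make phosphocholine by repeated methylation of phosphoethanolamine. Both measured members of the list of 3 methyltransferases rose, and both were also called without the filter on low signal. A count of 2 is too small to read against the 6.13% of all probe sets called higher. PMEAMT (AT1G48600), phosphoethanolamine N-methyltransferase, had 445, 409 and 344 in sex4-3, against 96.3, 118 and 80.7 in sex1-3. The groups were clearly separate and the difference was 4.09-fold (log2 2.03 ± 0.18, adjusted p = 0.0001). AT1G73600, listed as a further enzyme of this step, had 156, 101 and 108 in sex4-3, against 12.3, 6.82 and 4.95 in sex1-3. That was 16.0-fold higher in sex4-3 (log2 4.0 ± 0.35, adjusted p = 9e-05), with sex1-3 close to the level of weak signals. Both stayed called without each of the 6 arrays in turn.

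Few starch genes had a named probe set, and those listed under starch breakdown were not called. PWD (AT5G26570), phosphoglucan, water dikinase, which acts after SEX1, had 205, 168 and 127 in sex4-3, against 203, 165 and 160.3 in sex1-3. The groups overlapped (log2 -0.0991 ± 0.20, adjusted p = 0.8). AMY1 (AT4G25000), an alpha-amylase, had weak and scattered signals of 11.7, 20.4 and 26.1 in sex4-3, against 40.4, 12.2 and 24.1 in sex1-3 (log2 -0.31 ± 0.47, adjusted p = 0.72). DPE1 (AT5G64860), the plastid disproportionating enzyme, had 40.1, 17.6 and 27.6 in sex4-3, against 15.6, 22.3 and 15.6 in sex1-3. Its groups overlapped as well (log2 0.62 ± 0.37, adjusted p = 0.33). PWD and AMY1 changed sign in some fits without 1 array: PWD was at 0.0823 without sex4-3 replicate 3 and 0.00764 without sex1-3 replicate 1, and AMY1 was at 0.0138 without sex4-3 replicate 1 and 0.0964 without sex1-3 replicate 1.

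Of the list for starch synthesis, which also holds QQS, 3 of 4 measured members were tested. Only QQS was called (33.3%), whereas the enzyme genes APL3 and SBE2.2 were not. This count is too small to read against the 10.6% of all probe sets called in either direction. QQS (AT3G30720), an Arabidopsis-specific gene known for lower leaf starch when it is more active, had 129, 85.2 and 116 in sex4-3, against 21.8, 28.6 and 22.3 in sex1-3. Every sex4-3 array was above every sex1-3 array, 4.51-fold on average (log2 2.17 ± 0.23, adjusted p = 0.00023), and the call held without each array in turn. APL3 (AT4G39210), a large subunit of ADP-glucose pyrophosphorylase, had 42.5, 31.4 and 38.9 in sex4-3, against 30.4, 23.6 and 14.2 in sex1-3. Its signals did not overlap but were not called (log2 0.78 ± 0.32, adjusted p = 0.15), and its difference was 0.478 without sex1-3 replicate 3. SBE2.2 (AT5G03650), a starch branching enzyme, had 199, 185 and 119 in sex4-3, against 143, 139 and 97.2 in sex1-3 (log2 0.4 ± 0.23, adjusted p = 0.31). APL4 did not pass the filter on low signal, with 15.2, 7.22 and 4.47 in sex4-3, against 5.62, 9.37 and 2.65 in sex1-3.

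Among genes of flavonoid and phenylpropanoid synthesis, 5 of 7 measured members were tested, 2 rose and 1 fell. So few calls are not read against the 10.6% of all probe sets called in either direction. The list median was 0.369. Without the filter on low signal all 7 were tested, again 2 rose and 1 fell, and the list median was -0.0161. CHIL (AT5G05270), a chalcone isomerase-like protein that helps the first steps of flavonoid synthesis, had 108, 108 and 88.3 in sex4-3, against 1.13, 1.69 and 11.9 in sex1-3. This was the largest rise of any probe set with 1 named gene (log2 5.16 ± 0.72, adjusted p = 0.0013). Its size is uncertain because 2 sex1-3 signals were below 3.22, the 20th percentile of the 6 arrays: with such signals raised to 3.22 the difference was 4.34. Without any 1 of the sex4-3 arrays its mean signal fell under the filter and it was not tested. UGT78D1 (AT1G30530), a flavonol rhamnosyltransferase, had 106, 119 and 100.4 in sex4-3, against 52.9, 41.4 and 47.0 in sex1-3. It was 2.31-fold higher (log2 1.21 ± 0.18, adjusted p = 0.0021), while its close relative UGT78D2 was at 0.37 ± 0.21 and not called. CCOAMT (AT1G67980), a caffeoyl-CoA methyltransferase of the phenylpropanoid branch, had 22.5, 24.8 and 40.6 in sex4-3, against 138, 82.7 and 157 in sex1-3. The difference was 4.29-fold in the other direction (log2 -2.1 ± 0.29, adjusted p = 0.0013). DFR, of anthocyanin synthesis, was at -0.0161 ± 0.37, and its groups overlapped.

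Genes that act on the cell wall were higher where they were called, although most measured members of these families were too weak to be tested. The glycosyl hydrolase 9 (GH9) family holds endoglucanases, and 3 of its 15 measured members passed the filter. Of these 3, 2 were called (66.7%), a count too small to read against the 6.13% of all probe sets called higher. The filter took the mean of both genotypes, so a gene weak in sex1-3 could pass through its sex4-3 signals. Without the filter, 3 of the 15 were called higher, and the family median was 0.302, against 1.4 with it. GH9C2 (AT1G64390) had 106, 85.7 and 57.9 in sex4-3, against 21.6, 10.3 and 4.74 in sex1-3. It was 7.92-fold higher (log2 2.99 ± 0.47, adjusted p = 0.0028). GH9B7 (AT1G75680) had 272, 209.9 and 192 in sex4-3, against 92.4, 86.9 and 74.7 in sex1-3. Its difference was 2.63-fold with a smaller spread (log2 1.4 ± 0.18, adjusted p = 0.00089). GH9A3 was at -0.2 ± 0.40 and not called. GH9B8, pointed out after its values were seen, did not pass the filter and was not tested, with 34.9, 31.6 and 18.1 in sex4-3, against 1.48, 1.77 and 3.58 in sex1-3; these groups did not overlap.

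Xyloglucan endotransglucosylases cut and rejoin wall xyloglucan, and expansins loosen the wall. XTH32 (AT2G36870) had 120.2, 109.6 and 83.1 in sex4-3, against 39.2, 31.3 and 33.7 in sex1-3. It was 2.98-fold higher (log2 1.57 ± 0.21, adjusted p = 0.00093). XTH32 was the single call among 3 tested of 9 measured family members (33.3%), with XTH16 at 1.3 ± 0.42 and XTH33 at 0.69 ± 0.34. This count is too small to read against the 6.13% of all probe sets called higher. EXPA8 (AT2G40610) had 822, 624 and 479 in sex4-3, against 312, 336 and 249.8 in sex1-3. Its signals did not overlap (log2 1.08 ± 0.20, adjusted p = 0.007). EXPA8 was the single call among 10 expansins tested of 18 measured, whose median was 0.369. That share, 10.0%, was near the 10.6% of all probe sets called in either direction. The calls for these 4 wall genes held without each array in turn. Without sex1-3 replicate 2 or sex1-3 replicate 3 there were 2 expansins called higher, and without sex4-3 replicate 1 or sex4-3 replicate 3 there were 2 xyloglucan endotransglucosylases. EXPA16, named after its values were seen, was not called at -0.845 ± 0.37 but was called lower without sex4-3 replicate 1 (-1.35, adjusted p = 0.0047) and with array weights (-1.23, adjusted p = 0.012).

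Tubulins, the subunits of microtubules, which guide the deposition of cellulose, rose in 5 of 6 tested cases, against the 6.13% of all probe sets called higher. TUA6 (AT4G14960) had 818, 777 and 607 in sex4-3, against 306, 359 and 226 in sex1-3. It was 2.49-fold higher (log2 1.32 ± 0.19, adjusted p = 0.0017). TUB9 (AT4G20890) had 299, 266 and 286 in sex4-3, against 126, 135 and 110.4 in sex1-3. Its groups were tight and far apart (log2 1.2 ± 0.16, adjusted p = 0.00086). TUB7 had 90.2, 71.7 and 77.7 in sex4-3, against 45.2, 40.6 and 41.0 in sex1-3 (log2 0.91 ± 0.19, adjusted p = 0.012). TUB5 had 436, 292 and 274 in sex4-3, against 179, 176 and 181 in sex1-3, and its call (log2 0.87 ± 0.19, adjusted p = 0.015) was lost without sex1-3 replicate 3 (adjusted p = 0.051). TUB6, named after its values were seen, was the fifth call (0.64 ± 0.17) and was lost without sex4-3 replicate 1 (adjusted p = 0.068), sex4-3 replicate 2 (0.10), sex1-3 replicate 1 (0.092) or sex1-3 replicate 3 (0.14). The alpha-tubulin TUA1 lay the other way, at -0.31 ± 0.14, and was not called although its signals did not overlap. The number of tubulins called was 3 without sex1-3 replicate 3, 3 with eBayes without a trend and 1 with all 12 arrays in the fit.

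SWEET proteins let sugars pass membranes, and 2 of the 7 members tested rose (28.6%, against 6.13% of all probe sets called higher). SWEET17 (AT4G15920), a fructose carrier of the vacuole membrane, had 113, 106 and 149 in sex4-3, against 28.2, 44.7 and 38.8 in sex1-3. It was 3.32-fold higher (log2 1.73 ± 0.22, adjusted p = 0.00084). SWEET1 (AT1G21460), a glucose carrier of the plasma membrane, had 137, 166 and 146 in sex4-3, against 82.0, 59.6 and 76.8 in sex1-3. Its sex4-3 signals all lay above those of sex1-3 (log2 1.05 ± 0.18, adjusted p = 0.0048). SWEET11, which exports sucrose for phloem loading and had the strongest signals of the family, was at 0.73 ± 0.25 with overlapping groups and an adjusted p of 0.086. SWEET2, SWEET4, SWEET13 and SWEET16 lay between -0.46 and 0.31 and were not called. There were 3 calls without sex1-3 replicate 2.

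**Figure D3:**
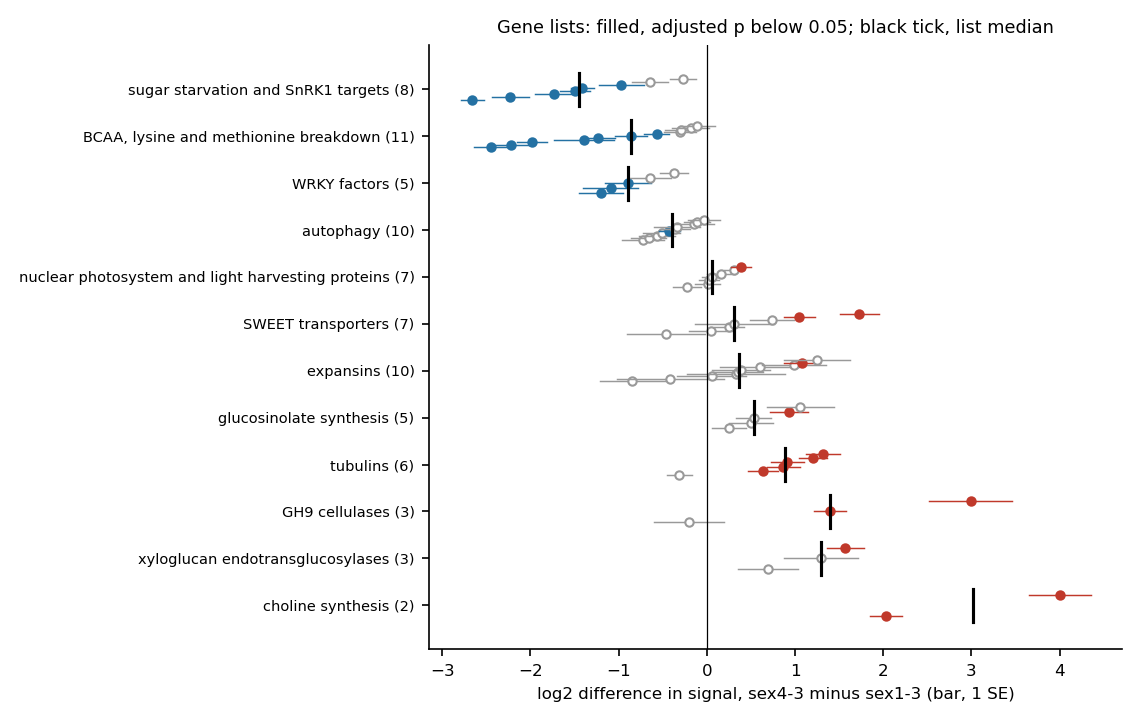
Each point is 1 tested gene of 12 lists (number tested in brackets), at its log2 difference with a bar of 1 SE; filled points were called, red higher and blue lower in sex4-3, open points were not called, and the black tick is the list median. All 8 points of the starvation list and all 11 of amino acid breakdown lie left of 0, and 5 of 6 tubulins and both choline genes lie right of it.

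Transcripts of the chloroplast genome leaned to higher signals in sex4-3. Of 68 tested, 61 were above 0, the median was 0.478, 16 were called (23.5%) and all of these rose, against 6.13% of all probe sets called higher. The signals of 28 did not overlap between the genotypes, all higher in sex4-3, which held for 17.4% of all probe sets. rpl14 (ArthCp059), a ribosomal protein, had 319, 192 and 254 in sex4-3, against 101, 85.5 and 69.4 in sex1-3. It was 2.96-fold higher (log2 1.57 ± 0.22, adjusted p = 0.0013). psbN (ArthCp051), of photosystem II assembly, had 118, 89.0 and 147 in sex4-3, against 52.0, 36.0 and 39.4 in sex1-3 (log2 1.47 ± 0.23, adjusted p = 0.0026). ndhH (ArthCp080), of the NDH complex, had 186, 102 and 98.9 in sex4-3, against 57.3, 37.8 and 28.7 in sex1-3, with sex4-3 replicate 1 the highest of them (log2 1.64 ± 0.30, adjusted p = 0.0061). psaA (ArthCp022), a core subunit of photosystem I, had 1728, 654 and 766 in sex4-3, against 524, 249 and 152 in sex1-3. Its call (log2 1.82 ± 0.42, adjusted p = 0.021) was lost without sex1-3 replicate 2 (adjusted p = 0.067) or sex1-3 replicate 3 (0.073).

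By complex, the calls were spread over 6 of 15 ribosomal protein genes, 5 of 15 of photosystem II, 3 of 10 of the NDH complex, 1 of 5 of photosystem I and 1 of 7 other genes (ycf4, named after its values were seen, and lost without sex4-3 replicate 1 or sex1-3 replicate 3, adjusted p = 0.055 and 0.087). None of the 6 genes of ATP synthase, the 6 of cytochrome b6f or the 3 of RNA polymerase was called. The large subunit of Rubisco, rbcL, had 935, 416 and 600.2 in sex4-3, against 617, 442 and 522 in sex1-3. Its groups overlapped (log2 0.24 ± 0.25, adjusted p = 0.6). The largest difference, at petG (2.44 ± 0.91), was not called, and its signals were scattered. petG was called higher without sex4-3 replicate 1 (3.34, adjusted p = 0.022) and with array weights (2.83, adjusted p = 0.016). Relative to the mean of the 6 arrays the median of the 68 probe sets was 0.54, 0.028 and 0.12 on the sex4-3 arrays, against -0.058, -0.38 and -0.19 on the sex1-3 arrays. Plastid transcripts made up 3.70%, 2.99% and 3.16% of the signal in sex4-3, against 3.07%, 2.58% and 2.96% in sex1-3. The number called was 9 without sex1-3 replicate 2 and 9 without sex1-3 replicate 3. It was 11 with each array centred on its median, 8 with eBayes without a trend and 0 with all 12 arrays in the fit. The part of the overall plastid share of each array in these calls was not tested. WT replicate 2, outside the 6-array fit, had a plastid share of 8.83% and a GAPDH 3' to 5' ratio of 4.52. The part of RNA quality or labelling in the plastid signals was not tested. How far the 68 genes vary together from array to array was not tested either.

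**Figure D4:**
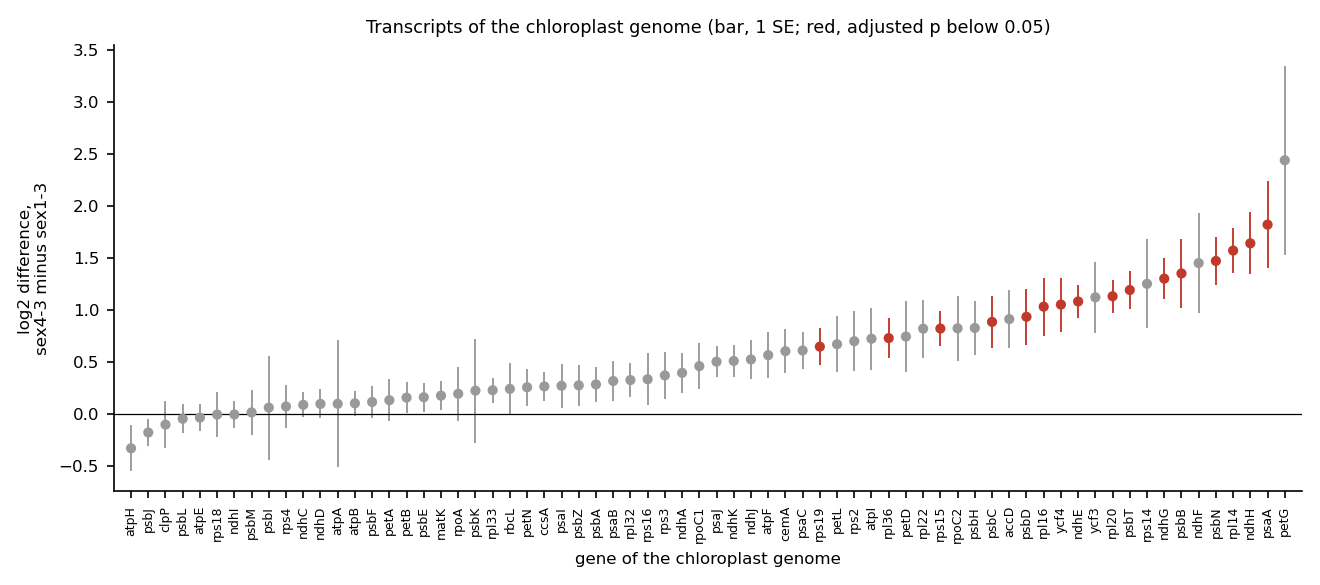
The 68 tested genes of the chloroplast genome along the horizontal axis, in order of their log2 difference (vertical axis, sex4-3 minus sex1-3, bar of 1 SE). The 16 red points were called; 61 of the 68 points lie above 0.

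Of 7 nuclear genes for the photosystems tested, the median was 0.0573 and 1 was called (14.3%, against 10.6% of all probe sets in either direction). This was LHCB4.2, a minor antenna protein, with 6458, 5689.6 and 5825 in sex4-3, against 4476, 4571 and 4650.4 in sex1-3. Its groups did not overlap, but the call (log2 0.39 ± 0.11, adjusted p = 0.044) was lost without any 1 of the 6 arrays (adjusted p from 0.073 to 0.12), and its difference was 0.251 after median centring. PORB (AT4G27440), a light-dependent enzyme of chlorophyll synthesis, had 431, 518 and 529 in sex4-3, against 281, 167 and 286 in sex1-3. It was 2.06-fold higher (log2 1.04 ± 0.21, adjusted p = 0.01), with an adjusted p of 0.055 without sex4-3 replicate 2. CHLM, an earlier enzyme of that pathway, was at 0.037 ± 0.14 and not called.

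WRKY transcription factors, several of them known from senescence and defence, were lower in sex4-3 where they were called. Of the 67 listed, only 6 had a named probe set and 5 were tested. All 5 tested had differences below 0, and 3 fell, against 4.51% of all probe sets called lower. WRKY6 (AT1G62300) had 21.5, 24.0 and 38.4 in sex4-3, against 64.0, 59.9 and 62.7 in sex1-3 (log2 -1.2 ± 0.25, adjusted p = 0.013). WRKY22 (AT4G01250) had 21.7, 16.1 and 14.0 in sex4-3, against 47.2, 33.0 and 30.5 in sex1-3 (log2 -1.09 ± 0.31, adjusted p = 0.046). WRKY53 (AT4G23810) had 29.5, 49.3 and 59.7 in sex4-3, against 90.2, 73.5 and 83.2 in sex1-3 (log2 -0.89 ± 0.26, adjusted p = 0.049). Of the 5 tested, 4 had signals that did not overlap, all lower in sex4-3, against 13.7% of all probe sets in that direction. None of the 5 was called with all 12 arrays in the fit, and 1 was called without the filter on low signal. All 3 calls were lost without sex4-3 replicate 2 (adjusted p from 0.062 to 0.13), sex1-3 replicate 1 (0.051 to 0.17) or sex1-3 replicate 3 (0.051 to 0.13). WRKY53 was also lost without sex4-3 replicate 1 (0.11), WRKY22 without sex4-3 replicate 3 (0.096), and both without sex1-3 replicate 2 (0.078 and 0.079).

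Autophagy genes, which serve the recycling of cell contents, lay below 0 in all 10 tested cases with a median of -0.392, and 1 of the 10 fell, against 4.51% of all probe sets. This was ATG8F, with 1440.4, 1556 and 1536 in sex4-3, against 1944, 2216 and 1933 in sex1-3. This call (log2 -0.42 ± 0.12, adjusted p = 0.048) was lost without any 1 of the 6 arrays (adjusted p from 0.079 to 0.12), and 2 genes of the list were called without sex4-3 replicate 3. COR27 (AT5G42900), a cold- and clock-regulated gene, had 95.2, 75.3 and 80.6 in sex4-3, against 150.2, 193 and 154 in sex1-3. It was 1.98-fold lower (log2 -0.98 ± 0.18, adjusted p = 0.0058). CCL (AT3G26740), a transcript whose decay is known to follow the circadian clock, had 368, 532 and 718 in sex4-3, against 1433, 1392 and 1772 in sex1-3. The sex4-3 signals were spread but all below those of sex1-3 (log2 -1.55 ± 0.22, adjusted p = 0.0013).

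Further lists held 1 call each or none. Of 13 cytochrome P450 genes tested, 1 was called (7.69%, against 10.6% of all probe sets), as was 1 of 4 bHLH factors and 1 of 5 genes of glucosinolate synthesis and transport; counts this small are not read against that share. CYP71B6 fell (log2 -0.7 ± 0.17, adjusted p = 0.024), and the call was lost without sex4-3 replicate 1, sex4-3 replicate 2, sex1-3 replicate 1 or sex1-3 replicate 3 (adjusted p from 0.051 to 0.11). The bHLH factor bHLH121, a regulator of iron uptake, fell (log2 -0.6 ± 0.14, adjusted p = 0.022), and the call stayed only without sex4-3 replicate 1, with adjusted p from 0.054 to 0.086 in the other fits without 1 array. The 5 glucosinolate genes were all above 0, and the glucosyltransferase UGT74B1 rose (log2 0.93 ± 0.22, adjusted p = 0.022). Its adjusted p was 0.055 without sex4-3 replicate 1, 0.072 without sex4-3 replicate 2, 0.059 without sex1-3 replicate 2 and 0.058 without sex1-3 replicate 3. The jasmonate-responsive defensin PDF1.2 had 222, 564 and 1546 in sex4-3, against 905, 2654 and 1476 in sex1-3. These signals overlapped and were not called (log2 -1.4 ± 0.56, adjusted p = 0.15). PDF1.2 was called lower without sex4-3 replicate 3 (-2.11, adjusted p = 0.0092) and with the replicate block (-1.4, adjusted p = 0.032). The 1 auxin response gene tested, IAA18, was at -0.138 and was not called.

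Of the 15 largest rises of probe sets with 1 named gene, CHIL, AT1G73600 and GH9C2 are given above. AT1G13650 had 194, 138 and 110.5 in sex4-3, against 1.72, 12.9 and 9.01 in sex1-3. It followed CHIL in size (log2 4.62 ± 0.60, adjusted p = 0.00088), with a difference of 4.32 when signals below 3.22 were raised to it. AT5G48490 had 1065, 958 and 609.6 in sex4-3, against 101, 109 and 79.7 in sex1-3. This strong transcript was 8.92-fold higher with a small error (log2 3.16 ± 0.22, adjusted p = 3.4e-05). AT4G30020 had 57.2, 65.4 and 72.3 in sex4-3, against 7.32, 8.51 and 4.81 in sex1-3, a rise of 3.27 ± 0.34, and AT1G11850 one of 2.65 ± 0.33. The others were AT4G38660, AT1G47400, AT2G44940, AT5G05250, AT5G18460, AT1G70985, AT4G28780 and AT2G16990, with differences from 2.21 to 3.23 and adjusted p from 0.0051 to 0.047. Of these, AT4G38660 was lost without sex4-3 replicate 2 (adjusted p = 0.061), AT2G16990 without sex1-3 replicate 1 (0.065), and AT2G44940 without sex1-3 replicate 2 (0.12) or sex1-3 replicate 3 (0.14). AT2G44940 had 45.0, 40.3 and 30.2 in sex4-3, against 26.5, 1.55 and 1.91 in sex1-3, with 1 sex1-3 array far above the others. AT2G44940 and AT2G16990 fell under the filter on low signal without any 1 of the sex4-3 arrays, and AT2G44940 also without sex1-3 replicate 1, so that it was called in none of the 6 fits without 1 array. AT5G18460 was not tested without sex4-3 replicate 1 or sex4-3 replicate 2, and AT1G47400 and AT4G38660 were not tested without sex4-3 replicate 1.

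Other genes with a symbol and a large rise had varied functions. MSRB5 (AT4G04830), a methionine sulfoxide reductase that repairs oxidized proteins, had 514, 439 and 499 in sex4-3, against 83.8, 137 and 125 in sex1-3. It was 4.28-fold higher (log2 2.1 ± 0.20, adjusted p = 0.00013). GSTU20 (AT1G78370), a glutathione transferase, had 165, 138 and 239.5 in sex4-3, against 57.9, 44.2 and 31.0 in sex1-3. Its groups did not overlap (log2 2.04 ± 0.26, adjusted p = 0.00084). DRT100 (AT3G12610), a leucine-rich repeat protein, had 474, 365 and 272 in sex4-3, against 78.8, 134 and 75.4 in sex1-3 (log2 1.96 ± 0.26, adjusted p = 0.00084). GPDHC1 (AT2G41540), a cytosolic glycerol-3-phosphate dehydrogenase, had 48.7, 42.5 and 28.4 in sex4-3, against 6.37, 8.35 and 11.7 in sex1-3. These weaker signals differed 4.55-fold (log2 2.19 ± 0.39, adjusted p = 0.005).

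Among the largest falls, AT1G33055 had 2.08, 4.09 and 6.69 in sex4-3, against 56.7, 54.0 and 67.7 in sex1-3. Signals were weak in sex4-3, with a difference of -3.94 ± 0.48, or -3.73 with low signals raised, and without any 1 sex1-3 array the probe set fell under the filter. AT1G72060 had 159, 298 and 369 in sex4-3, against 2226, 1912 and 2363 in sex1-3. It was strong in sex1-3 and 8.32-fold lower in sex4-3 (log2 -3.06 ± 0.26, adjusted p = 8.2e-05). AT5G57655 had 68.8, 112 and 136 in sex4-3, against 591, 554 and 387 in sex1-3 (log2 -2.31 ± 0.25, adjusted p = 0.00029), and AT2G05540 had 249, 292 and 318 in sex4-3, against 932, 1335 and 1283 in sex1-3 (log2 -2.04 ± 0.17, adjusted p = 8.2e-05). Neither pair of groups overlapped. ALDH7B4 (AT1G54100), a stress-inducible aldehyde dehydrogenase, had 77.9, 117 and 212 in sex4-3, against 621, 413 and 525 in sex1-3. It was 4.11-fold lower (log2 -2.04 ± 0.30, adjusted p = 0.0019), and AGL19, a MADS-box factor, was 2.79-fold lower (log2 -1.48 ± 0.25, adjusted p = 0.0039).

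The remaining large falls were of loci without a symbol. AT2G31945, AT1G09500, AT1G05340 and AT1G19540 had differences of -2.84, -3.05, -2.16 and -2.04. AT2G31945 had 8.17, 6.40 and 2.49 in sex4-3, against 52.2, 43.0 and 21.5 in sex1-3, and without any 1 of the sex1-3 arrays it fell under the filter and was not tested. AT1G09500 was lost without sex1-3 replicate 1 (adjusted p = 0.077). AT5G39520 had 1.43, 10.3 and 30.2 in sex4-3, against 219, 43.4 and 42.4 in sex1-3. A single sex1-3 array was far above the others, and the call (log2 -3.28 ± 0.94, adjusted p = 0.048) stayed only without sex4-3 replicate 3; the difference was -2.07 without sex4-3 replicate 1, and adjusted p ran from 0.062 to 0.18 without each of the other 5 arrays.

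About as many calls had no gene name here as had 1: 722 of the 1452 were unnamed, 701 had 1 gene and 29 had several. The largest differences of unnamed probe sets were falls. One had 20.9, 17.5 and 38.2 in sex4-3, against 702, 789 and 854 in sex1-3. It was 32.4-fold lower (log2 -5.02 ± 0.26, adjusted p = 3.6e-06), the largest difference in that direction of all probe sets tested. The next had 1.62, 1.21 and 24.5 in sex4-3, against 172, 61.9 and 128 in sex1-3, with 1 sex4-3 array above the others (log2 -4.93 ± 0.92, adjusted p = 0.0066). The 2 largest rises of such probe sets were 3.81 ± 0.51 and 3.61 ± 0.35.

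The levels in ptpkis2 and WT, which took no part in the fit, were set beside those of the 2 genotypes compared. They are given as a description, without a test, since the probe sets were chosen for their difference between sex4-3 and sex1-3. IVD had 39.6, 43.0 and 47.8 in ptpkis2 and 37.8 and 52.7 in WT replicates 1 and 3, close to sex4-3. PMEAMT had 584, 554 and 606 in ptpkis2 and 694 and 663 in WT replicates 1 and 3, above sex4-3, and CHIL had 107, 110.4 and 108 in ptpkis2 and 113 and 53.8 in WT replicates 1 and 3. AT1G73600 had 590.3, 609 and 699 in ptpkis2 and 209.8 and 236 in WT replicates 1 and 3. QQS had 74.9, 101 and 94.7 in ptpkis2, near sex4-3, and 209 and 219 in WT replicates 1 and 3, above it. SIS and AT3G15450 were lower in ptpkis2 than in sex4-3: SIS had 13.9, 9.02 and 19.9 in ptpkis2, and AT3G15450 had 145, 138 and 120.3 in ptpkis2. In WT replicates 1 and 3 these 2 had 81.7 and 212, and 869 and 582. TUA6 had 876, 860.2 and 809 in ptpkis2 and 732 and 515 in WT replicates 1 and 3, and the ptpkis2 signals overlapped those of sex4-3.

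Over the 1452 calls, the mean log2 signal of ptpkis2 lay nearer to sex4-3 than to sex1-3 in 1425 (98.1%, against 73.6% of all probe sets tested). That of WT replicates 1 and 3 did so in 1296 (89.3%, against 66.0%). WT replicate 2, which stood apart with a median signal of 62.2, was nearer to sex4-3 in 60.1%. On this array the 3' to 5' ratio was 4.52 for GAPDH and 9.8 for actin. Its spike-in control signals had a median ratio of 21.3 to those of the 6 arrays compared. Leaving that array out, the 3 sex1-3 signals lay below all 8 other arrays in 699 of the 836 higher calls (83.6%) and above all 8 in 533 of the 616 lower calls (86.5%). Over all 13647 probe sets tested, sex1-3 lay below the others in 1441 and above them in 1175 (19.2% in either direction). The 3 sex4-3 signals stood outside all 8 other arrays in 11 of the higher calls (1.32%) and 5 of the lower (0.812%). Over all tested, sex4-3 lay above the others in 34 and below them in 32 (0.484% in either direction). The choice of calls fixed part of these shares: only 3 of the 1452 had overlapping sex4-3 and sex1-3 signals.

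**Figure D5:**
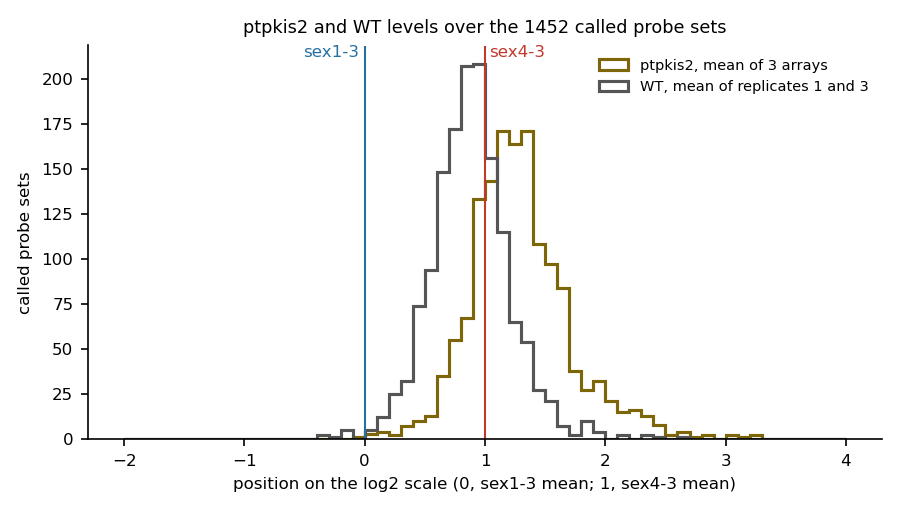
For each of the 1452 called probe sets, the mean log2 signal of ptpkis2 and of WT (replicates 1 and 3) is placed on a scale where 0 is the sex1-3 mean and 1 the sex4-3 mean; the vertical axis counts probe sets in steps of the position. Both distributions gather around sex4-3, with medians of 1.3 for ptpkis2 and 0.88 for WT.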

How the data were processed

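The deposited table holds a linear signal intensity for each probe set on each array, made by the authors with MAS5 and GCOS, as named in the submitters' processing notes without versions. On every array the mean after the same trimming was 100.01, so the authors had scaled the arrays. Precision is limited by having 3 arrays per genotype.

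Here log2 signals were taken with no pseudocount. From 22810 probe sets, 64 controls were removed, and the 40% lowest in mean log2 signal over the 6 arrays were then dropped, so 13647 of 22746 were tested. Limma 3.58.1 in R 4.3.3 fitted 2 group means (lmFit, then eBayes with a trend, 4 residual and 7.21 prior degrees of freedom); tests were two-sided with Benjamini-Hochberg adjustment over all 13647. On simulated data of this comparison, 200 of the 13647 probe sets were changed. The fit recovered 38.4% of 2-fold and 81.3% of 4-fold changes, and 3.98% of calls were false. The data had 1452 calls, so these shares may differ there.

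Names came from the platform annotation and a RefSeq table (TAIR10.1): 13513 probe sets had 1 gene, 503 several, and 8730 are unnamed here. Named genes were the 15 largest rises and falls with 1 gene whose signals did not overlap, the 8 largest each way with a symbol, up to 4 called members of each list, all measured starch and choline genes, and 2 unnamed probe sets each way. A gene with several probe sets was taken at its strongest. The comparison, the lists and this rule were chosen with earlier results of these data known. Some lists, among them ribosomal proteins, trehalose metabolism, nitrate assimilation, senescence and MYB factors, had no named probe set, and the heat shock list had 1, which did not pass the filter. Same-numbered arrays of the 2 genotypes deviated with r = -0.0041, -0.043 and 0.11, so the numbers were not used as pairs. In all, 19 alternative settings were run.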

Additional observations from a re-analysis of the deposited data

How the results depend on the processing

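Of 70 named genes called, 36 were called under every alternative in which they were tested, and 48 were tested and called without each of the 6 arrays in turn. A further 5 were called in each such fit that tested them, but fell under the filter in others, and 17 were lost in at least 1. The number of probe sets called (1452) was 806 with eBayes without a trend (502 higher, 304 lower), 332 with all 12 arrays in the fit (222 and 110), which takes in WT replicate 2, and 2606 with array weights (1453 and 1153). Median centring gave 1615 calls, 547 higher and 1068 lower. Leaving out 1 array gave 612 to 1439 calls, 354 to 755 higher and 258 to 684 lower. Of 56 list genes called (35 higher, 21 lower), 37 were called without a trend (22 higher) and 20 with 12 arrays (11 and 9); without 1 array the range was 38 to 58 (25 to 37 higher, 11 to 21 lower). Without 1 array, PWD ranged from -0.262 to 0.0823 and AMY1 from -0.764 to 0.0964. They were above 0 in these cases: PWD was at 0.0823 without sex4-3 replicate 3 and 0.00764 without sex1-3 replicate 1, and AMY1 at 0.0138 without sex4-3 replicate 1 and 0.0964 without sex1-3 replicate 1. With the replicate block, 1571 were called (907 higher, 664 lower), 1367 of them shared with the 1452, and 27 chloroplast-encoded genes against 16. Over all probe sets tested, same-numbered arrays deviated with r from -0.043 to 0.11. The plastid medians were highest on replicate 1 (0.54 in sex4-3, -0.058 in sex1-3) and lowest on replicate 2 (0.028 and -0.38). Whether the numbers pair the arrays for these genes was not tested. The cause of these shifts was not tested. With 200 of 13647 probe sets changed, simulated 1.5-fold changes were recovered in 6.3% of cases. The data had 1452 calls, so the share recovered there may differ. ATG8F (1.34-fold) and LHCB4.2 (1.31-fold) were called, although both calls were lost without any 1 array.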
